A study of Mus musculus with 8 samples.

Results

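The cell cycle genes described here are 53 mouse genes that serve cell division, grouped by textbook role into 10 genes of G1 and its exit, 17 genes of DNA synthesis in S phase, and 26 genes of mitosis. They were taken by name from the array annotation, each with its brightest probe. All 53 had a probe, and 48 of them, against 15764 of 29924 gene names in all, passed the filter, which asked that 1 or more cell types have both of their arrays well above background. Cdk6, Ccne2, Aurkb, Cenpf, and Ttk did not pass and were not tested. Of the 48, 36 were well above background on all 8 arrays. The other 12 were dim in some cells, so a gene that passed through 1 bright cell type was chosen in part for being high there.

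RNA was measured on 8 one-color Agilent arrays of CD4 T cells sorted from the peripheral lymph nodes (pLN) of B6.Cg-Foxp3<tm1Mal> mice, in which GFP marks Foxp3+ cells. All mice, of mixed sex and 8 to 14 weeks of age, had received KLH, a protein antigen, with alum, and each array holds 25 ng of RNA from a pool of 8 to 15 mice at d12 or d25 post immunization (p.i.). The 4 cell types were naïve CD4 T cells (GFP- PD1lo GL7-), Treg cells (GFP+ PD1lo GL7-), TFH cells, which help B cells in the germinal center (GFP- PD1hi GL7+), and TFR cells, their Foxp3+ regulatory counterpart (GFP+ PD1hi GL7+/-). There was 1 array for each cell type and day, so n = 2 arrays per cell type, 1 per day, and no group without immunization. The naïve gate was set by surface markers, and both Foxp3- populations came from the same immunized nodes. All 4 arrays of d12 lay on slide 1, TFH and naïve CD4 T cells of d25 on slide 2, and TFR and Treg cells of d25 on slide 3, so that day and slide cannot be told apart, whereas TFH versus naïve and TFR versus Treg cells were compared within a slide on each day.

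A cell enters division when D-type cyclins with Cdk4 or Cdk6, and then cyclin E with Cdk2, inactivate the retinoblastoma protein and release E2F transcription factors. E2F targets supply the helicase, clamp, and nucleotides for DNA replication. Later, B-Myb and FoxM1 drive many genes of the mitotic spindle, of the kinetochore, and of cofactors of the anaphase-promoting complex. Many of these are highest around G2 and M phase. In a lymph node response, T cells divide after antigen contact, while most naïve CD4 T cells rest in G0.

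Levels below are normalized intensities with a floor of 20 and a 75th percentile of all probes set to 1500. For each cell type they are given in the order d12, d25. They compare arrays for the same gene and not genes with each other. Differences are log2 differences ± SE from limma fitted over all genes tested, with cell type and day as terms and 3 residual degrees of freedom, and calls were made at an adjusted p below 0.05 (Benjamini-Hochberg). In RNA of sorted populations, fewer dividing cells and less RNA per dividing cell cannot be told apart. Between 46.31% and 50.39% of the probes of an array were well above background, and no probe was saturated on any array. The labelled cell types carried their markers, with Foxp3 at 49262 and 48593 in Treg and 37266 and 37513 in TFR cells, against 358 and 285 in naïve CD4 T and 66 and 83 in TFH cells.

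**Figure D1:**
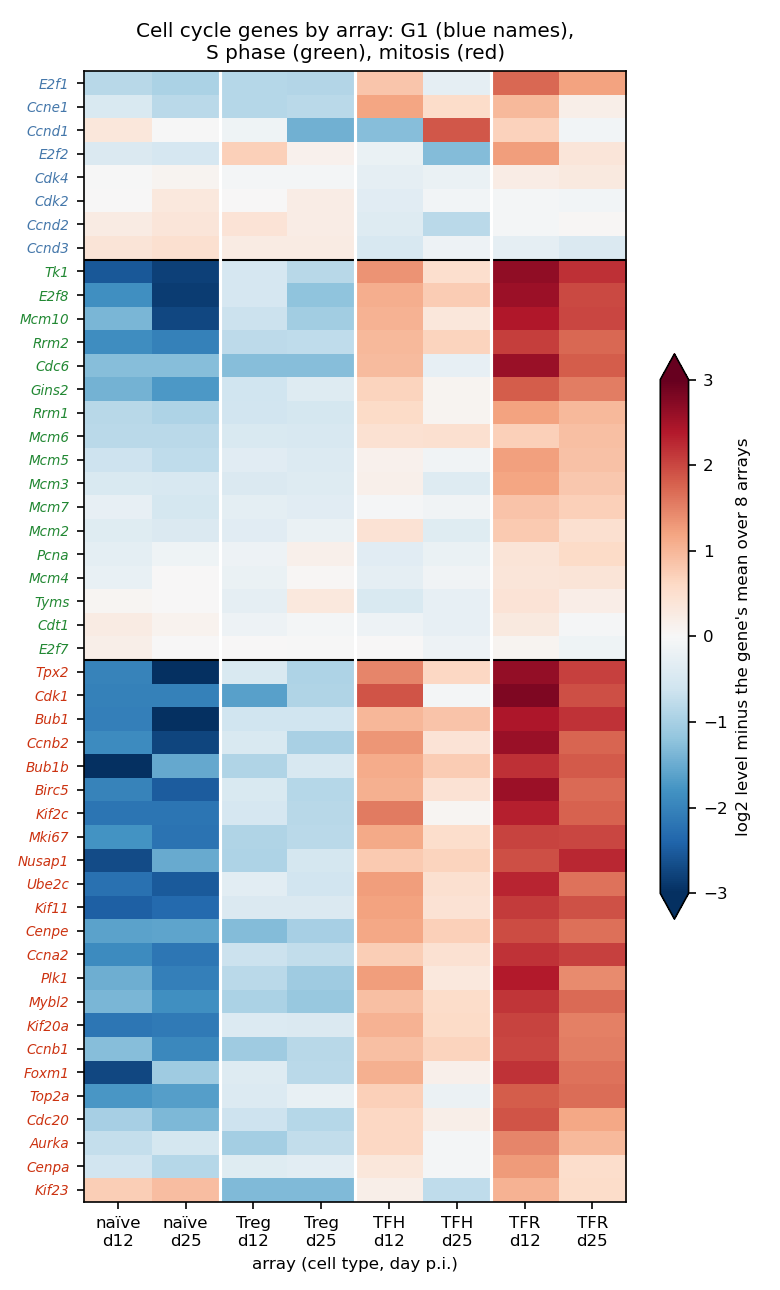
Color shows the log2 level of each of the 48 tested genes minus its mean over the 8 arrays, with genes as rows (blue names G1, green S phase, red mitosis, sorted within a group by the difference of follicular and progenitor cells) and arrays as columns. Most S phase and mitotic genes run from low on the naïve to high on the TFR arrays, while the rows of Ccnd2, Ccnd3, and Kif23 do not.

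The follicular cells, TFH and TFR, had higher levels of nearly all mitotic genes and of most S phase genes than the cells they were compared with, naïve CD4 T and Treg cells (progenitor cells below). In TFH versus naïve CD4 T cells, 39 of the 48 genes were called (81.2%, against 46.5% of all genes tested). Of these, 34 were higher (70.8%, against 20.9% of all genes) and 5 were lower (10.4%, against 25.6%). In TFR versus Treg cells, 41 were called (85.4%, against 39.6% of all genes), 40 of them higher (83.3%, against 18.7%) and 1 lower (2.08%, against 20.9%). These comparisons share no array. Of the 48 genes, 34 were called higher in both, 1 lower in both, and 2, Cdk4 and Kif23, in opposite directions.

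The groups differed in size and direction. The median log2 difference of the 23 mitotic genes was 2.84 in TFH versus naïve and 2.73 in TFR versus Treg cells, with 22 and 23 of them called higher. With genes that were dim in naïve CD4 T or Treg cells set to their lower bound, these medians were 2.54 and 2.73. The 17 S phase genes had medians of 0.708 and 1.421, with 10 and 14 called higher, and 0.432 and 1.421 with dim genes at their bound. The 8 G1 genes had medians of -0.28 and 0.35, with 2 and 3 called higher and 4 and 1 called lower. The medians of all genes tested were -0.07 and -0.08. Among genes well above background on all 8 arrays, 29 of the 36 such cell cycle genes were called in TFH versus naïve cells, against 6468 of all 13299, and 30 of 36 in TFR versus Treg cells, against 5553. The calls of 27 of the 39 and 28 of the 41 genes were kept whichever array was left out, and no call turned its direction. With the Tukey test of the study's methods, 13 and 7 genes were called.

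**Figure D2:**
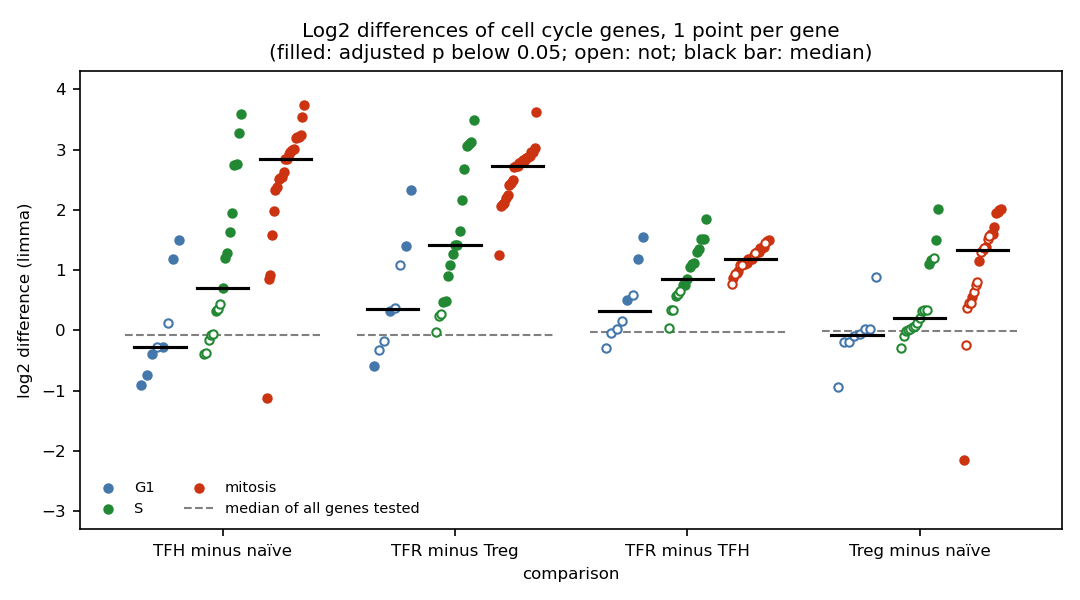
Each point is the log2 difference of 1 gene in 1 of 4 comparisons of cell types (blue G1, green S phase, red mitosis, filled where called), black bars are the medians of a group and dashed lines the median of all genes tested. Mitotic genes lie at a median of 2.84 and 2.73 in the follicular comparisons and at 1.18 in TFR versus TFH cells, with Kif23 below 0 in both comparisons with naïve CD4 T cells.

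Among the G1 genes, cyclins D2 and D3 were lower in follicular than in progenitor cells, while cyclin E1 and E2f1 were higher. Ccnd2, which with Cdk4 or Cdk6 opens G1, was at 53168 and 57430 in naïve CD4 T cells, 59849 and 52078 in Treg, 34141 and 25680 in TFH, and 42955 and 46168 in TFR cells. The TFH arrays were lowest on both days, and both follicular types lay below both progenitor types on each day. Ccnd3, the D-type cyclin of lymphocyte expansion, was at 21151 and 22673 in naïve CD4 T cells, 19118 and 19192 in Treg, 11729 and 14570 in TFH, and 13409 and 11982 in TFR cells, again with no overlap between follicular and progenitor arrays. In TFR versus Treg cells alone, Ccnd2 was not called (-0.33 ± 0.16, adjusted p = 0.166). Averaged over the follicular and the progenitor types, Ccnd2 fell by 0.61 ± 0.11 (adjusted p = 0.00865) and Ccnd3 fell by 0.67 ± 0.10 (adjusted p = 0.0037, limma). Both calls were kept in all 18 alternatives, which leave out the Tukey test, not run for this average, and the log2 threshold of 1. Neither gene reaches that threshold. Ccnd1 read 69 and 53 on the naïve, 50 and 20 on the Treg, 22 and 196 on the TFH, and 88 and 51 on the TFR arrays, and only 1 TFH and both TFR readings were well above background. It was not called in any comparison.

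Cyclin E1 moved the other way. Ccne1, the partner of Cdk2 at the G1/S transition, was at 2491 and 1964 in naïve CD4 T cells, 1903 and 1959 in Treg, 7825 and 5047 in TFH, and 6737 and 3880 in TFR cells. All follicular arrays exceeded all progenitor arrays, and the difference between both averages was 1.46 ± 0.15 (adjusted p = 0.00152). A second, dimmer probe of Ccne1 gave 1.16 in TFH versus naïve and 0.64 in TFR versus Treg cells, against 1.51 and 1.41 for the probe used. E2f1, an activating E2F factor, was at 320 and 295 on the naïve, 317 and 309 on the Treg, 1016 and 475 on the TFH, and 1897 and 1319 on the TFR arrays. It was higher in follicular than in progenitor cells by 1.76 ± 0.20 (adjusted p = 0.00185), also kept in all 18 alternatives. E2f2, the other activating E2F on the list, was at 4129 and 3941 on the naïve, 9189 and 6099 on the Treg, 4833 and 2276 on the TFH, and 13232 and 7157 on the TFR arrays. It was higher in TFR than in TFH cells by 1.55 ± 0.26 (adjusted p = 0.017, up to 0.532 over 19 alternatives) and was not called in the follicular comparisons.

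The kinases of G1 showed differences of smaller size. Cdk4 was at 33901 and 35694 in naïve CD4 T cells, 32731 and 32601 in Treg, 28092 and 29491 in TFH, and 39868 and 41283 in TFR cells. It fell by 0.27 in TFH versus naïve cells (adjusted p = 0.0435) and rose by 0.31 in TFR versus Treg cells (adjusted p = 0.0346), and its 3 dimmer probes had the same signs. The first of these calls was lost whichever array was left out, with log2 differences between -0.35 and -0.23 over all 19 alternatives. The second was lost without either naïve, either Treg, or either TFR array and in 10 of 19 alternatives in all (0.28 to 0.35, adjusted p up to 0.172). Cdk2, the kinase that pairs with cyclin E, was at 673 and 827 on the naïve, 664 and 775 on the Treg, 521 and 625 on the TFH, and 634 and 631 on the TFR arrays, and its fall by 0.39 in TFH versus naïve cells (adjusted p = 0.0385) was lost in 12 of 19 alternatives. Cdk6 and Ccne2 were near or at the floor, at 20 to 32 and at 20, and did not stand above background, so their levels are bounds. Over the follicular and progenitor averages, 5 of the 8 G1 genes were called (62.5%, against 59.1% of all genes), 2 higher and 3 lower (against 25.9% and 33.2%), a share close to that of all genes.

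The windows given as promoters of E2f1 and Ccne1, the G1 genes with the largest called differences between follicular and progenitor cells, are printed below. Each lies at the 1 start given for the gene. Whether the cells use this start, and whether it is the main promoter of the gene, was not tested. They are RefSeq sequences of build GRCm38.p6, from 250 bases before to 50 after the start, read 5′ to 3′ on the gene's strand. Capitals mark words that were searched on both strands: CCAAT, bound by NF-Y, the cell cycle genes homology region TTTGAA or TTCGAA (CHR), bound by MuvB complexes, and the E2F words, of which the first is TTCCCGC, the next TTCGCGC, another TTGCCGC, and the last TTGGCGC. Neither window holds one of these exact words. Other starts of these genes were not searched, so promoters at another start may hold them.
E2f1, chr2:154569377-154569676, minus strand: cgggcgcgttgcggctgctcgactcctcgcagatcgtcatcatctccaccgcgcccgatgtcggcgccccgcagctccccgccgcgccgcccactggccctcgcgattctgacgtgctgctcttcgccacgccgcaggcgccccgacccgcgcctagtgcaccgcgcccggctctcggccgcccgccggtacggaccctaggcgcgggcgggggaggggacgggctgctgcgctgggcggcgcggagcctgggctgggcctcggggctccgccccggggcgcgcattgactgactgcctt
Ccne1, chr7:38107441-38107740, minus strand: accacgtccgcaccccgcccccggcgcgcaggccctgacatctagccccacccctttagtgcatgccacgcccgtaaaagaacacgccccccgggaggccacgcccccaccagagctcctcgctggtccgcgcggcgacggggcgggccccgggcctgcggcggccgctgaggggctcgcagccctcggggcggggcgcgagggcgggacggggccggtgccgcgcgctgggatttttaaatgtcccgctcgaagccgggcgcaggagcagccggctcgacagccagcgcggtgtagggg

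**Figure D3:**
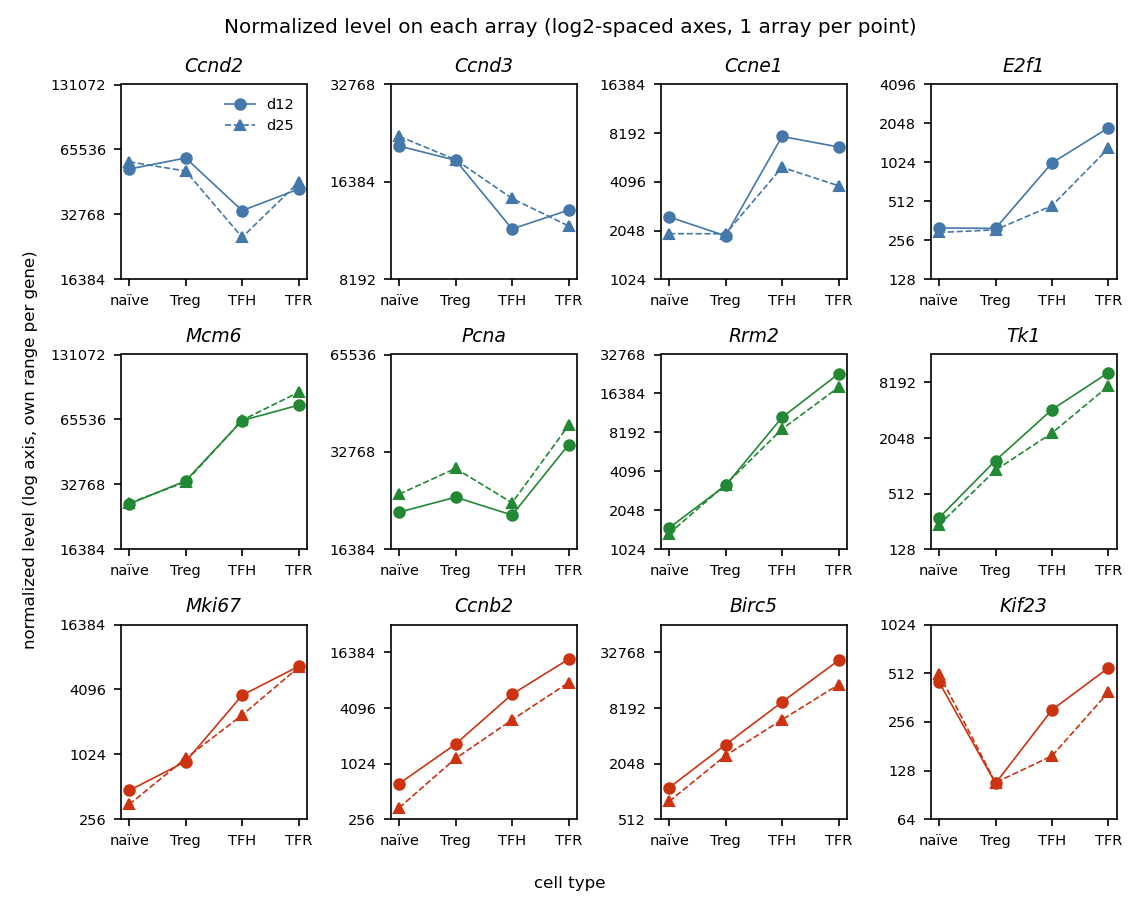
Normalized levels of 12 cell cycle genes on each array are plotted by cell type (circles and solid lines d12, triangles and dashed lines d25) on log axes with a range of their own per gene. Ccnd2 and Ccnd3 are lower in TFH and TFR than in naïve CD4 T and Treg cells on both days, Ccne1, E2f1, Mcm6, Rrm2, Tk1, Mki67, Ccnb2, and Birc5 are higher, Pcna is highest in TFR cells, and Kif23 is high in naïve CD4 T cells.

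In S phase, 10 of the 17 genes were called higher in TFH versus naïve and 14 in TFR versus Treg cells, with Tk1, E2f8, Rrm2, and Mcm10 above 2.5 on the log2 scale in both. Tk1, the thymidine kinase that salvages thymidine, was at 281 and 236 in naïve CD4 T cells, 1170 and 920 in Treg, 4163 and 2320 in TFH, and 10450 and 7475 in TFR cells. Each step in the order naïve, Treg, TFH, TFR raised it on both days. The difference was 3.59 ± 0.16 (adjusted p = 0.000242) or 12.1-fold in TFH versus naïve cells and 3.09 ± 0.16 (adjusted p = 0.00071) in TFR versus Treg cells. A dimmer Tk1 probe, well above background on all 8 arrays, gave 2.82 and 2.88 in these comparisons, and another was at the floor on all arrays. Rrm2, the regulated small subunit of ribonucleotide reductase, was at 1501 and 1355 on the naïve, 3193 and 3247 on the Treg, 10706 and 8701 on the TFH, and 23232 and 18255 on the TFR arrays, a rise of 2.76 ± 0.12 and 2.68 ± 0.12 in the same comparisons. Rrm1, the large subunit, was at 2376 and 2235 on the naïve, 2826 and 2924 on the Treg, 6257 and 4496 on the TFH, and 9717 and 8269 on the TFR arrays. It rose by 1.20 and 1.64, less than Rrm2 in both. Tyms, thymidylate synthase, stayed between 205 and 370 on all arrays and was not called in any comparison.

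Mcm10 and Gins2 followed the same order. Of the origin loading genes, Cdc6 was highest in TFR and then in TFH cells, with naïve and Treg cells tied at the floor. Cdt1 did not follow the order. Mcm10, needed to start the helicase, was at 172 and 68 in naïve CD4 T cells, 284 and 217 in Treg, 917 and 567 in TFH, and 2370 and 1806 in TFR cells, with 1 of the 2 naïve arrays well above background. Gins2, a subunit of the active helicase, was at 437 and 356 on the naïve, 781 and 908 on the Treg, 1878 and 1244 on the TFH, and 4178 and 3427 on the TFR arrays. They rose by 2.74 and 1.95 in TFH versus naïve and by 3.06 and 2.17 in TFR versus Treg cells. Cdc6, which loads the helicase onto origins, was at 20 and 20 on the naïve, 20 and 20 on the Treg, 94 and 41 on the TFH, and 295 and 171 on the TFR arrays. It was well above background on both TFR arrays and 1 TFH array and on none of the others, so that TFR cells had at least 4.22-fold more than Treg cells. Cdt1, its partner in loading, lay between 6521 and 9473 on all arrays and was not called in any comparison.

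The replicative helicase has 6 subunits, Mcm2 to Mcm7. In TFR versus Treg cells all 6 were called higher, by 0.47 (Mcm4) to 1.422 (Mcm3). In TFH versus naïve cells 3 were called higher, Mcm6 by 1.28, Mcm5 by 0.71, and Mcm7 by 0.32, and the others ranged from -0.08 to 0.43. The test of the difference between both changes called Mcm7 alone among the 6. Mcm6 was at 26605 and 26838 in naïve CD4 T cells, 34040 and 33655 in Treg, 64787 and 65054 in TFH, and 76376 and 87626 in TFR cells, with TFH levels nearer to those of TFR than of naïve cells. Mcm5 was at 4193 and 3822 on the naïve, 5154 and 4914 on the Treg, 7120 and 6006 on the TFH, and 15283 and 11887 on the TFR arrays. The TFR arrays stood above the others also for Mcm3, at 7561 and 7434 on the naïve, 7703 and 7951 on the Treg, 11577 and 8004 on the TFH, and 23891 and 18404 on the TFR arrays. Mcm7 was at 16491 and 13691 on the naïve, 16118 and 15625 on the Treg, 19142 and 18341 on the TFH, and 35356 and 32101 on the TFR arrays, and again the TFR arrays were far above the rest. Pcna, the sliding clamp, ranged from 20922 to 39574, was highest on the TFR array of each day, and rose by 0.49 ± 0.09 in TFR versus Treg cells (adjusted p = 0.0125) with a TFH minus naïve difference of -0.06.

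The repressive E2F genes gave different readings. E2f8, itself an E2F target that damps the S phase program, was at 157 and 78 in naïve CD4 T cells, 400 and 245 in Treg, 1199 and 950 in TFH, and 3339 and 2237 in TFR cells, with 1 naïve array well above background. Its difference was 3.27 ± 0.17 in TFH versus naïve and 3.13 ± 0.17 in TFR versus Treg cells. E2f7 was read by a pair of probes that disagreed. The brighter one, used by the rule, stayed between 189 and 236 on all arrays. The dimmer one was at 20 and 20 in naïve CD4 T cells, 31 and 57 in Treg, 199 and 131 in TFH, and 825 and 773 in TFR cells, and it was well above background on the follicular arrays alone.

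With the probes used, Tk1 and E2f8 had the largest called differences between follicular and progenitor cells of the S phase genes (3.34 and 3.20). Their promoter windows are printed in the same way. In E2f8, the capitals in the middle hold CCAAT on the opposite strand overlapping the E2F word TTGGCGC, and the second run in capitals is a CHR word on the opposite strand. The Tk1 window, at the 1 start given for this gene, holds none of the words.
Tk1, chr11:117825965-117826264, minus strand: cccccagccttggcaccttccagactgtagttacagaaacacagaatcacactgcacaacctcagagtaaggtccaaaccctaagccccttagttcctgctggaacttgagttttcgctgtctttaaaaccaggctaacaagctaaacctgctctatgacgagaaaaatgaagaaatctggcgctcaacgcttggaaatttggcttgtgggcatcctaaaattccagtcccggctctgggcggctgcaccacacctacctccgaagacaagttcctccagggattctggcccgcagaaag
E2f8, chr7:48881547-48881846, minus strand: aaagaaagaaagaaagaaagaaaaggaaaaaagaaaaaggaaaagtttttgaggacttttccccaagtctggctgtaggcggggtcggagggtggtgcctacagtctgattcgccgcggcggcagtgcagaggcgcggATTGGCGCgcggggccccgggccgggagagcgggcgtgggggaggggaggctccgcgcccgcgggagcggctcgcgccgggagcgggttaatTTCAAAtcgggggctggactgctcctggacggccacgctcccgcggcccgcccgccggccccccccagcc

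Among mitotic genes the levels rose in the order naïve, Treg, TFH, TFR. On both days this order held for 21 of 23 tested mitotic genes, for 9 of 17 S phase genes, and for 0 of 8 G1 genes. For 2 of the 21, Cdk1 and Kif2c, no naïve or Treg array was well above background. Their order of naïve and Treg cells is thus not measured. The exceptions among mitotic genes were Aurka and Kif23. TFR arrays were highest on both days for 22 of the 23 mitotic genes, and naïve arrays were lowest for 21. How often all genes tested show such an order was not counted. The summed level of the 26 mitotic probes was 10823 and 8974 in naïve CD4 T cells, 18669 and 17080 in Treg, 52289 and 35286 in TFH, and 119452 and 79765 in TFR cells. Thus, the sum in TFH cells was 4.83 and 3.93 times that in naïve cells, and in TFR cells 6.4 and 4.67 times that in Treg cells.

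The cyclins of G2 and mitosis all rose. Ccna2, which drives late S phase and entry into mitosis, was at 503 and 416 in naïve CD4 T cells, 1189 and 1123 in Treg, 3115 and 2566 in TFH, and 8370 and 7703 in TFR cells. It had a TFH minus naïve difference of 2.63 ± 0.10 (adjusted p = 0.000177) and a TFR minus Treg difference of 2.80 ± 0.10 (adjusted p = 0.000371), both kept in all 19 alternatives. Ccnb1, a partner of Cdk1, was at 405 and 258 on the naïve, 465 and 548 on the Treg, 1838 and 1559 on the TFH, and 3942 and 2824 on the TFR arrays. Ccnb2, the other B-type cyclin, was at 623 and 342 on the naïve, 1671 and 1168 on the Treg, 5774 and 3053 on the TFH, and 13811 and 7715 on the TFR arrays. The 4 cell types were separated on each day without a change of order for all 3 cyclins, whose differences ran from 2.39 to 3.19 in TFH versus naïve and from 2.72 to 2.88 in TFR versus Treg cells. Cdk1, the kinase they activate, was at 20 and 20 on the naïve, 26 and 43 on the Treg, 299 and 78 on the TFH, and 567 and 307 on the TFR arrays. It was not well above background in naïve CD4 T or Treg cells, so that TFH cells had at least 2.61-fold more than naïve and TFR cells at least 7.87-fold more than Treg cells. Its dimmer probes were well above background on no array.

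Of the mitotic kinases and the checkpoint, Plk1, which acts from centrosome maturation to cytokinesis, was at 327 and 218 in naïve CD4 T cells, 514 and 426 in Treg, 2148 and 1125 in TFH, and 4639 and 2392 in TFR cells. Aurka, the centrosomal Aurora kinase, was at 380 and 432 on the naïve, 308 and 376 on the Treg, 965 and 604 on the TFH, and 1718 and 1237 on the TFR arrays, with a Treg minus naïve difference of -0.25 ± 0.28 that was not called. The TFR minus Treg difference of Aurka was 2.10 ± 0.28 (adjusted p = 0.00573, up to 0.0826 over 19 alternatives). Its TFH minus naïve difference was 0.91 ± 0.28 (adjusted p = 0.0479, up to 0.332), lost without any single array but TFH d25. Bub1, a kinase of the spindle checkpoint, was at 44 and 20 in naïve CD4 T cells, 119 and 120 in Treg, 361 and 327 in TFH, and 971 and 812 in TFR cells, with no naïve array well above background. Bub1b, the checkpoint protein BubR1, was at 44 and 121 on the naïve, 187 and 251 on the Treg, 758 and 594 on the TFH, and 1597 and 1257 on the TFR arrays, with 1 naïve array well above background. Relative to naïve CD4 T cells, TFH cells had at least 5.89-fold more Bub1. Aurkb and Ttk were not tested: Aurkb lay between 20 and 27, and Ttk was well above background on 1 TFR array alone, at 41 and 64 in TFR cells and at the floor on the others.

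The anaphase-promoting complex was represented by its activator and its ubiquitin-conjugating enzyme. Cdc20, the activator, was at 2005 and 1581 in naïve CD4 T cells, 2635 and 2232 in Treg, 6214 and 4526 in TFH, and 14793 and 8953 in TFR cells. Ube2c, the enzyme, was at 277 and 229 on the naïve, 1055 and 887 on the Treg, 3125 and 1821 on the TFH, and 6460 and 4091 on the TFR arrays. Ube2c differed more, by 3.24 ± 0.17 in TFH versus naïve and 2.41 ± 0.17 in TFR versus Treg cells, and Cdc20 by 1.57 ± 0.14 and 2.25 ± 0.14. Birc5 (survivin), of the chromosomal passenger complex, was at 1128 and 801 in naïve CD4 T cells, 3296 and 2509 in Treg, 9508 and 6125 in TFH, and 26813 and 14659 in TFR cells. Its differences of 3.005 ± 0.14 (adjusted p = 0.00025) and 2.79 ± 0.14 (adjusted p = 0.000631) were given by 3 probes, with 2.83 to 3.51 and 2.76 to 2.86 over the probes.

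The spindle proteins Tpx2 and Nusap1 were dim on 2 and on 1 of the naïve arrays. Tpx2, which activates Aurora A on the spindle, was at 52 and 20 in naïve CD4 T cells, 151 and 109 in Treg, 573 and 321 in TFH, and 1285 and 860 in TFR cells. Nusap1, a microtubule-binding spindle protein, was at 82 and 186 on the naïve, 279 and 368 on the Treg, 923 and 846 on the TFH, and 2030 and 2569 on the TFR arrays. For Tpx2, no naïve array was well above background and TFH cells had at least 7.35-fold more than naïve cells, the highest of the 6 bounds among mitotic genes in that comparison. For Nusap1, 1 naïve array was well above background, and the TFH minus naïve difference was 2.84 ± 0.31. Top2a, the topoisomerase that disentangles chromosomes, was at 130 and 138 in naïve CD4 T cells, 328 and 372 in Treg, 716 and 386 in TFH, and 1542 and 1392 in TFR cells, a difference of 1.98 ± 0.28 for TFH versus naïve and 2.07 ± 0.28 for TFR versus Treg cells. Mki67, the gene of the proliferation marker Ki-67, was at 475 and 352 on the naïve, 879 and 942 on the Treg, 3621 and 2370 on the TFH, and 6708 and 6573 on the TFR arrays. It rose 7.17-fold in TFH and 7.29-fold in TFR cells over naïve and Treg cells, respectively (adjusted p = 0.000693 and 0.0013).

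Of the 5 kinesins, 4 followed the common order. Kif11, the motor that separates spindle poles, was at 38 and 41 in naïve CD4 T cells, 153 and 154 in Treg, 477 and 279 in TFH, and 879 and 784 in TFR cells, with at least 6.25-fold more in TFH than in naïve cells. Kif20a, a motor of cytokinesis, was at 316 and 326 on the naïve, 1059 and 1044 on the Treg, 2936 and 2108 on the TFH, and 5737 and 4059 on the TFR arrays. Kif2c, a microtubule depolymerase, was at 20 and 20 on the naïve, 64 and 51 on the Treg, 268 and 95 on the TFH, and 463 and 314 on the TFR arrays, and it was well above background on the follicular arrays alone. Cenpe, the kinetochore motor, was at 132 and 134 in naïve CD4 T cells, 162 and 203 in Treg, 899 and 660 in TFH, and 1562 and 1272 in TFR cells, and its Treg readings were near those of naïve cells. Kif23, a motor of the central spindle, did not share the order, at 452 and 508 in naïve CD4 T cells, 107 and 108 in Treg, 304 and 158 in TFH, and 553 and 391 in TFR cells. Here the naïve arrays were above the TFH arrays, and the Treg arrays were lowest. Kif23 fell by 1.13 ± 0.29 in TFH versus naïve (adjusted p = 0.031, up to 0.321 over 19 alternatives) and by 2.16 ± 0.29 in Treg versus naïve cells (adjusted p = 0.0166, up to 0.298), and it rose by 2.12 ± 0.29 in TFR versus Treg cells (adjusted p = 0.00658, up to 0.115). A second Kif23 probe was at the floor on all arrays.

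Centromere and regulator genes completed the group. Cenpa, the centromeric histone, was at 2968 and 2451 in naïve CD4 T cells, 3425 and 3532 in Treg, 5555 and 4247 in TFH, and 10637 and 6392 in TFR cells and rose by 0.85 and 1.25, the least among the mitotic genes called higher in each comparison. Cenpf was at the floor on all arrays and was not tested. Mybl2 (B-Myb), which starts the mitotic program with the MuvB complex, was at 323 and 235 on the naïve, 433 and 379 on the Treg, 1573 and 1229 on the TFH, and 3684 and 2695 on the TFR arrays. Its differences were 2.33 ± 0.10 (adjusted p = 0.000228) and 2.96 ± 0.10 (adjusted p = 0.000372), kept in all 19 alternatives. Foxm1, which acts after it, was at 20 and 63 in naïve CD4 T cells, 102 and 76 in Treg, 278 and 149 in TFH, and 604 and 411 in TFR cells. No naïve array was well above background for Foxm1, and TFH cells had at least 3.11-fold more than naïve cells.

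The words were counted in the promoter windows of each group, the E2f1 window among them. These may not be the promoters that the cells use. Of the 53 genes, 43 had a promoter in the table, with 46 promoters in all. Those without one were Aurkb, Ccna2, Ccnd1, Ccnd2, Ccne2, Foxm1, Gins2, Kif20a, Mcm4, and Tpx2. CHR words were in 16 of 21 promoters of mitotic genes (76.2%), in 3 of 16 of S phase genes (18.8%), in 1 of 9 of G1 genes (11.1%), and in 19.2% of all 32851 promoters. E2F words were in 11 of 16 promoters of S phase genes (68.8%), in 3 of 21 of mitotic genes (14.3%), in 2 of 9 of G1 genes (22.2%), and in 9.57% of all promoters. CCAAT was in 17 of 21 of mitotic genes (81%), in 12 of 16 of S phase genes (75%), in 4 of 9 of G1 genes (44.4%), and in 37.4% of all. Kif23, whose levels did not follow the other mitotic genes, held 1 CCAAT and 1 CHR word. Cdk1 and Bub1 were called higher in follicular than in progenitor cells, where their naïve readings (and those of Cdk1 in Treg cells) were below background, so the size is a bound and their place among mitotic genes is not known. They are printed by the same rule on the fitted difference. Their sequences show the words together: Cdk1 holds 3 CCAAT, 2 CHR, and 2 E2F words, and Bub1 holds 2 CCAAT words on opposite strands and 1 CHR word.
Cdk1, chr10:69352863-69353162, minus strand: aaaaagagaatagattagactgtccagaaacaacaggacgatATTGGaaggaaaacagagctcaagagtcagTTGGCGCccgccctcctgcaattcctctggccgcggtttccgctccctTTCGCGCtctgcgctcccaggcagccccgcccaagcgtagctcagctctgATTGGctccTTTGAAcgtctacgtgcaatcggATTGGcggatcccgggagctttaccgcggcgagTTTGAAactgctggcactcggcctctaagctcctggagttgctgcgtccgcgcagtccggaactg
Bub1, chr2:127831810-127832109, minus strand: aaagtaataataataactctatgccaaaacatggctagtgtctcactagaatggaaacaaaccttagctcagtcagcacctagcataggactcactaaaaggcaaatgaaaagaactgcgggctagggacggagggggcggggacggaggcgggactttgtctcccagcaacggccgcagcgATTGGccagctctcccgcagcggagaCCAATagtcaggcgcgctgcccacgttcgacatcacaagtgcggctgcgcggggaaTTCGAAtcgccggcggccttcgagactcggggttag
These matches describe the letters of the window and no factor was measured on them.

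TFR cells also exceeded TFH cells. In this comparison 31 of the 48 genes were called (64.6%, against 22.1% of all genes), and all 31 were higher in TFR cells (against 11.6% called higher and 10.5% called lower of all genes). At an unadjusted p below 0.05, 40 of the 48 were higher and 0 lower, against 2955 and 2962 of all 15764 genes. Called were 16 of 23 mitotic genes, 12 of 17 S phase genes, and 3 of 8 G1 genes, Cdk4, E2f1, and E2f2. The mitotic genes differed by a median of 1.18, within 0.76 and 1.51, and each was higher in TFR cells on both days. Among genes well above background on all TFH and TFR arrays, the largest differences were those of E2f2, Mcm10, Tk1, and Ccna2. Cdc6, which passed the filter through TFR cells and was above background on 1 TFH array, read 94 and 41 in TFH against 295 and 171 in TFR cells. Of the others, Ccna2 had the smallest error (1.51 ± 0.10, adjusted p = 0.00144, up to 0.0585 over 19 alternatives). On d12, where both arrays lay on the same slide, the mitotic median was 1.10, and on d25, across slides, it was 1.31. The count fell to 11 when the slide entered as a block, as that of all genes fell from 3486 to 1349. Fewer were also called without the TFR array of d12, without that of d25, or without the TFH array of d25. The mitotic medians were then 1.123, 1.237, and 0.935. All 23 mitotic differences stayed positive in each of these fits.

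For most mitotic genes, Treg cells lay between naïve CD4 T cells and the follicular cells, while 32 of the 48 genes were not called against naïve cells. In Treg versus naïve cells 16 genes were called (33.3%, against 9.88% of all genes), 15 higher (31.2%, against 5.89%) and 1, Kif23, lower (2.08%, against 3.98%). The 15 were 11 mitotic genes, namely Mki67, Top2a, Ccna2, Ccnb2, Bub1, Birc5, Tpx2, Kif11, Kif20a, Mybl2, and Ube2c, and 4 S phase genes, namely Gins2, Rrm2, Tk1, and E2f8. Tk1 rose by 2.01 ± 0.16 (adjusted p = 0.00396) and Ccna2 by 1.34 ± 0.10 (adjusted p = 0.00308), both kept whichever array was left out. Of the 8 G1 genes 0 were called by limma and 0 by the Tukey test of the study's methods. At an unadjusted p below 0.05 was 1 of them, against 4325 of all 15764 genes. The count fell to 6 with the slide as a block, as that of all genes fell from 1557 to 523. Fewer were also called without either Treg, either naïve, or either TFR array. The mitotic median was then 1.266 without the Treg array of d25 and 1.407 without that of d12. It was 0.887 without the naïve array of d12, 1.516 without that of d25, and 1.336 without either TFR array. TFR versus Treg, TFR versus TFH, and Treg versus naïve cells share arrays, so their counts are not independent of each other.

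Over the averages of both follicular and both progenitor types, 40 of the 48 genes were called (83.3%), 37 higher (77.1%) and 3 lower (6.25%), beside the 59.1%, 25.9%, and 33.2% of all genes given above. Of these 40 calls, 35 were kept in every alternative, with the log2 threshold of 1 left out and genes not tested in a setting taken as kept. That threshold alone left 33. Those that were not are Cdk2, Mcm2, Pcna, Cdc6, and Foxm1. The change of TFR versus Treg and that of TFH versus naïve cells differed for 3 genes (6.25%, against 8.49% of all genes), so that the share was not above that of all genes.

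Between the days, the readings of mitotic genes were lower at d25 in the follicular cells, with no gene called. In TFH cells all 23 tested mitotic genes read lower at d25 than at d12, with a median of -0.63, and in TFR cells 22 of 23 did, with a median of -0.50. In naïve CD4 T cells 12 of 23 were lower, with a median of -0.27, and in Treg cells 11, with a median of 0.01. All genes tested had medians of 0.00 to 0.01, with 46.5% to 49.5% of them lower. S phase genes had medians of -0.30 in both follicular types. These are single arrays on different slides. Over the 4 cell types 0 of the 48 genes were called between d25 and d12 by limma (11 of all genes, 0.0698%). At an unadjusted p below 0.05 were 15 of the 48, against 4545 of all 15764 genes, a share close to that of all genes. Of the 15, 14 were lower at d25, against 2032 of the 4545. The smallest adjusted p was 0.0659, for Ccnb2 (-0.79 ± 0.09). With normexp background correction, or with only genes above background on all arrays, 4 were called lower at d25. Of all genes, 799 of 15764 were then called in the first setting and 797 of 13299 in the second, in either direction.

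**Figure D4:**
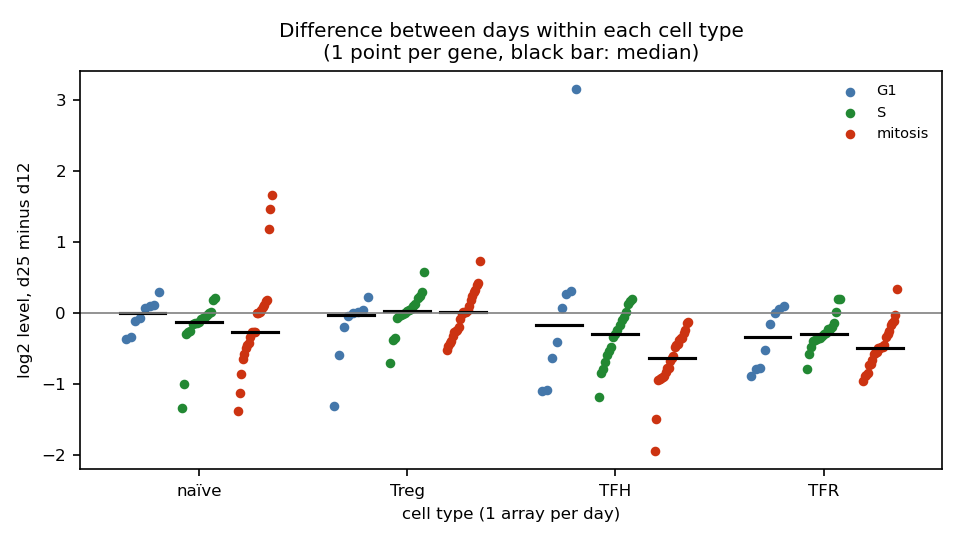
Points are the log2 level at d25 minus that at d12 of each tested gene within a cell type (blue G1, green S phase, red mitosis) and black bars are medians. The mitotic medians are -0.63 in TFH and -0.50 in TFR cells, against -0.27 in naïve CD4 T and 0.01 in Treg cells, with 1 array per day behind each point.

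Other genes of the cell cycle were read from a wider list by function. It holds 116 further genes, of which 115 had a probe and 109 were tested. In TFH versus naïve cells 61 of them were called higher and 5 lower (56% and 4.59%), and in TFR versus Treg cells 77 and 6 (70.6% and 5.5%), beside the shares of all genes given above. Calls were most frequent in the wider S phase list (29 of 39 higher in TFR versus Treg, 19 in TFH versus naïve cells) and the wider mitosis list (44 and 38 of 52), while in the list of G1 control 4 of 18 were higher and 5 lower in TFR versus Treg (22.2% and 27.8%, against 18.7% and 20.9% of all genes), and 4 and 1 in TFH versus naïve cells. The largest rises among called genes above background on both sides were in TFH versus naïve cells Cks2, a subunit of Cdk complexes (3.02 ± 0.31), Cdca8, of the chromosomal passenger complex (2.79 ± 0.18), and Chaf1a, a histone chaperone of replication (2.62 ± 0.18). In TFR versus Treg cells they were Pbk (3.40 ± 0.30), a mitotic kinase, Aspm (3.25 ± 0.17), of the spindle poles, and Spc24 (3.03 ± 0.31), of the kinetochore. Among called genes, the largest falls in TFH versus naïve cells were Pole2 (-1.98 ± 0.32), Pold2 (-0.61 ± 0.09), both subunits of replicative polymerases, and Gins3 (-0.59 ± 0.15). In TFR versus Treg cells they were Smc4 (-0.86 ± 0.08), a condensin subunit, Rb1 (-0.53 ± 0.14), the retinoblastoma gene, and Lin54 (-0.44 ± 0.12), which binds CHR words within MuvB. Rb1 was at 4074 and 4799 in naïve CD4 T cells, 6921 and 8078 in Treg, 8219 and 13058 in TFH, and 4781 and 5615 in TFR cells, highest in TFH cells on both days.

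Markers of other cells were read on the same arrays. Germinal center B cells also divide, and the sort was on CD4 T cells. Of 10 B cell genes, 5 to 9 were well above background on an array, with 9 on the TFH array of d25 alone. Their summed levels were 8507 and 6377 in naïve CD4 T, 10486 and 10137 in Treg, 8316 and 18915 in TFH, and 7934 and 9164 in TFR cells. Pax5 read 20 to the nearest whole number on all arrays and was well above background on none. Of 6 germinal center B cell genes, 5 were well above background on the TFH array of d25, against 2 to 4 on the others. Mybl1 was at the floor on all arrays. The summed level of this list was 805 and 589, 637 and 605, 15118 and 13648, and 1485 and 1643 in the same order of cell types, of which S1pr2 (7094 and 5105 in TFH cells) and Mef2b (7881 and 7869) made up most. Antibody-secreting cell genes summed to 3668 to 16214, myeloid genes to 17932 to 30385, and Cd8a with Cd8b1 to 2110 to 5118. Itgam made up most of the myeloid sum, while Cd68, of the same list, was higher in follicular cells, at 551 and 564 in naïve CD4 T cells, 368 and 394 in Treg, 5098 and 3768 in TFH, and 2868 and 2333 in TFR cells. Stroma and endothelium genes summed to 1136 to 3616, mostly Pecam1, and Col1a1 was highest in TFR cells, at 22 and 20 in naïve CD4 T cells, 41 and 37 in Treg, 197 and 48 in TFH, and 288 and 195 in TFR cells. Col1a2, at 54 and 68 on the naïve, 61 and 55 on the Treg, 43 and 23 on the TFH, and 172 and 107 on the TFR arrays, was well above background on the TFR arrays alone. The part of such cells in the cell cycle readings was not tested.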

How the data were processed

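RNA of 8 sorted CD4 T cell pools was hybridized to one-color Agilent arrays with 39429 probes of 4 spots each, per the labels and the files. The submitters' processing notes name Agilent Feature Extraction 10.7.3.1, and the deposited intensity per spot is its processed, background-subtracted signal. The authors also deposited a table of normalized intensity per probe, made by quantile normalization, a floor of 20, and scaling of the 75th percentile to 1500.

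Starting from the spot intensities, flagged spots were left out (pixel CV above 0.5, or beyond 1.42 interquartile ranges of the probe's spots), spots were averaged, and arrays were quantile normalized, scaled, and floored in the same way. The result correlated with the authors' table at r = 0.99936 or more per array. That table served as an alternative. Each gene took its brightest probe, and genes were tested where this probe was well above background on more than 50% of its spots on both arrays of a cell type. limma 3.58.1 (R 4.3.3) fitted cell type and day over 15764 genes, with 3 residual and 1.89 prior degrees of freedom, for 7 contrasts. P-values were Benjamini-Hochberg adjusted over all genes. The number of arrays limits the precision, and replicates of a cell type are separate pools of different days, so p-values measure the spread between these pools once the day is removed. Where both arrays of a cell type were dim, folds are lower bounds, from the bright group's mean against the lowest signal of probes well above background or the dim probe's own signal, whichever was higher.

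All listed genes may be named, with values per array for G1 genes and for genes called with an absolute log2 difference of at least 1, and the 3 largest rises and falls in the wider list. The members and lists were chosen with earlier results of these data known. Another 20 settings were run, among them other background correction, scaling, floor, filter, and probe rule, the slide as a block, no term for the day, the methods' Tukey test, and each array left out. The fit was tested on simulated data. All 53 accessions and symbols matched RefSeq names, which served for names and promoters (GRCm38.p6). Peyer's patch samples were not analysed here, and the level of 1 marker gene is not reported here.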

Additional observations from a re-analysis of the deposited data

Results flagged for a closer look

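The Treg to TFR change differed from the naïve to TFH change for 3 of the 48 genes by limma's test of the difference (8.49% of all genes did). Kif23 rose in the first and fell in the second, a difference of 3.24 on the log2 scale (adjusted p = 0.0173). Mcm7 rose more in TFR cells, by 0.77 (adjusted p = 0.0374), and Cdk4 by 0.59 (adjusted p = 0.0458), as it rose in TFR versus Treg and fell in TFH versus naïve cells. None of the 3 calls was kept in all fits that left out 1 array, whose counts ran from 0 to 3.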

How the results depend on the processing

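Of the calls, 35 of 40 held in every alternative for follicular versus progenitor cells, with the log2 threshold left out and genes not tested taken as kept. Counted so, 13 of 39 held for TFH versus naïve and 7 of 41 for TFR versus Treg cells. For TFR versus TFH and Treg versus naïve cells 0 of 31 and 0 of 16 held, and no called gene reversed. With the methods' Tukey test, 13, 7, 1, and 0 genes were called in TFH versus naïve, TFR versus Treg, TFR versus TFH, and Treg versus naïve cells. Of all 15764 genes, 2224, 894, 423, and 79 were called by it. Without a filter on dim genes, TFR versus TFH gave 12, Treg versus naïve 6, and the difference of both follicular changes 1 (1649, 702, and 418 of all 29924). With the slide as a block these were 11, 6, and 0 (1349, 523, and 691 of all genes). Without the day, which pairs arrays as the replicate block, they were 17, 10, and 1 (2213, 1000, and 807 of all genes). In that fit TFH versus naïve gave 34, TFR versus Treg 37, and follicular versus progenitor 38 (5521, 4240, and 7499 of all genes). An absolute log2 difference of at least 1 left 1 gene for the difference of changes, normexp gave 7 and a floor of 100 gave 6 (1028, 1618, and 1576 of all genes). Between the days, normexp gave 4 and the filter on all 8 arrays 4, against 0 (799 and 797, against 11, of all genes). Leaving out 1 array, counts ran from 29 to 35 for TFH versus naïve, 28 to 42 for TFR versus Treg, 5 to 30 for TFR versus TFH, 5 to 16 for Treg versus naïve, 37 to 41 for follicular versus progenitor, 0 to 3 for the difference of changes, and 0 for the days. Some genes not called reversed. E2f7 as the mean of its probes gave 1.424 (adjusted p = 0.00538) in TFH versus naïve, 2.12 (0.00266) in TFR versus Treg, and 1.77 (0.000697) in follicular versus progenitor cells, carried by its second probe. Ccnd1 gave 2.10 and -1.86 in TFH versus naïve without the TFH array of d12 or of d25 (adjusted p = 0.0181 and 0.0223), and -1.96 and 2.01 in TFR versus TFH cells (0.036 and 0.0416). Bub1 gave 1.11 for the difference of changes with a floor of 100 (0.0208). The cause of the other changes was not tested. Signal near background limits the genes at or near the floor. Scaling without quantile normalization moved the median of all genes in TFH versus naïve cells to -0.13.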
